A study of Homo sapiens with 10 samples.

Results

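The 9 genes described here are targets and feedback regulators of bone morphogenetic protein (BMP) and transforming growth factor beta (TGF-beta) signalling: ID1, ID2, ID3, SMAD6, SMAD7, SKI, SKIL, TGIF1 and BAMBI. They were taken by Ensembl identifier from the 59204 human genes of the count tables, and all 9 were found. In K562, an established chronic myeloid leukaemia line, RNA was labelled for 12 h with 30 µM 4-thiouridine, a nucleoside read as T-to-C changes after alkylation, and the label was then chased with 3 mM uridine. The chase medium held 1 µM AZ-5576, an inhibitor of the elongation kinase CDK9, or 1 µM JQ1, an inhibitor of the BET bromodomain proteins, or DMSO as the vehicle. One library was made from each medium at 2, 4 and 8 h, and 1 at 0 h is shared by the 3 courses, so each condition has n = 1. All 10 libraries carry the same pulse, wash and uridine, and no label names separate cultures.

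BMP and TGF-beta ligands bind receptor serine/threonine kinases, which phosphorylate SMAD proteins that enter the nucleus with SMAD4. The ID genes are among the direct targets of the BMP branch, and their products hold basic helix-loop-helix factors such as the E proteins away from DNA. The other members feed back on the pathway: BAMBI is a decoy receptor, SMAD6 and SMAD7 are inhibitory SMADs, and SKI, SKIL (SnoN) and TGIF1 are co-repressors that bind signalling SMADs. Many of these transcripts are short-lived in other cells, as is usual for feedback regulators.

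The libraries held 10293371 to 16008906 total reads, of which 2031796 to 3868420 were labelled, and 1208073 to 2366155 reads of added fly RNA. Levels are given as scaled reads, which are a gene's reads per 1000000 fly reads of the same library. The amount of fly RNA followed the mass of purified RNA, so levels are per mass of RNA. Neither the number of cells nor the RNA per cell can be read from them. The AZ-5576 library at 2 h stood apart in the 4980 fly genes, with a median correlation of 0.918 with the other libraries, against 0.941 for 0 h and 0.956 to 0.974 for the rest, and tests are given below with and without it. All 14 K562 markers had at least 20 reads in every library and held at most 1.58% of the reads. Of 14 markers of other cell types, 6 had a median under 20 reads and VWF had 0 reads in every library, while KRT8 had 2423 to 6509 reads. The summed level of these other markers was 0.0425% to 0.0756% of the reads, and their part in the results was not tested.

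In total RNA 8 of the 9 genes could be read, with a mean of at least 20 reads per library. SMAD7, the inhibitory SMAD of both branches, was too low: it had 0, 2 and 0 reads at 2, 4 and 8 h in AZ-5576, 8, 4 and 3 reads in JQ1, 3, 12 and 12 reads in DMSO, and 1 read at 0 h. No fold or test is given for it. In labelled RNA 5 genes reached the same mean, namely ID1, ID2, ID3, SKI and SKIL. SMAD6, TGIF1 and BAMBI did not, and their labelled reads are given as counts.

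Promoters are shown for 3 genes, from 250 bases before the RefSeq start (GRCh38.p14) to at most 8 bases into the first GENCODE v29 exon. ID1 had lower total RNA in AZ-5576 than in DMSO at every time, as did every other readable member but SMAD6. SMAD6 had its highest levels in JQ1 at 4 and 8 h. SKIL is the one member whose window held 3 of the 4 motifs searched, so it is shown for its motifs and not for its course. Capitals mark matches on either strand to GGCGCC, a GC-rich SMAD element, to CAGAC, the SMAD box, to TGACG, the core of the cyclic AMP response element, or to GTCT joined to AGAC, the palindromic SMAD element. They lie at chr20:31605039-31605288, chr15:66701986-66702235 and chr3:170357465-170357685, all on the plus strand.
ID1: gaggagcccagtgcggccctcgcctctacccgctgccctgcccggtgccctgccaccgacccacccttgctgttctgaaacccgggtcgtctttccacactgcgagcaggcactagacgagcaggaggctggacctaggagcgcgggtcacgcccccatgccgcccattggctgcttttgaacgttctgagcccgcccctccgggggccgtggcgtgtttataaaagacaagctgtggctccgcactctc
SMAD6: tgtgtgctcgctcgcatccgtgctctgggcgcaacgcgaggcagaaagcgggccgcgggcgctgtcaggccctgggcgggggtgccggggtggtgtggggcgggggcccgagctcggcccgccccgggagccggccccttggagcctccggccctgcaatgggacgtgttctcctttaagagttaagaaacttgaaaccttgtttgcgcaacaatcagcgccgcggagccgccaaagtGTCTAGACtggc
SKIL: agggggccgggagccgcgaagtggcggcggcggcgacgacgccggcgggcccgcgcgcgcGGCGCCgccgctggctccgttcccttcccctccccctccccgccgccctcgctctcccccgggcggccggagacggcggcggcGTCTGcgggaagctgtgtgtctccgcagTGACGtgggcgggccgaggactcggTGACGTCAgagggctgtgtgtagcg
The ID1 window held none of the 4 motifs. The SMAD6 window held 1 joined palindrome at the edge of the first exon. The SKIL window held 1 GGCGCC, 1 CAGAC (shown as its complement) and 3 TGACG, of which a pair overlap on opposite strands in 1 site. Over 35116 RefSeq windows of 300 bases, GGCGCC was in 19.2%, CAGAC in 45.3%, TGACG in 24.6% and the joined palindrome in 0.202%. Among the 8 members with an entry, CAGAC was in a window of 5, GGCGCC of 2, TGACG of 2 and the palindrome of 1; TGIF1 with 7 windows and SMAD7 with 3 had more chances of a match than the others. These matches describe the letters and are not evidence of binding.

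ID1 (ENSG00000125968, chromosome 20, 31605283 to 31606515, plus strand, GENCODE v29 on GRCh38) encodes an inhibitor of DNA binding that partners E proteins. In AZ-5576 ID1 had total levels of 70.5, 72.9 and 54.1 scaled reads at 2, 4 and 8 h. In JQ1 they were 238, 186 and 326, in DMSO 237, 323 and 734, and at 0 h 234. All 3 AZ-5576 libraries lay below every other library. JQ1 and DMSO lay within counting error of each other at 2 h, and JQ1 was lower at 4 and 8 h. In AZ-5576 ID1 was at 29.8% of DMSO at 2 h (95% interval 23.4% to 37.7%), 22.6% at 4 h (18.1% to 27.9%) and 7.37% at 8 h (6.09% to 8.84%). Part of the widening gap was the course in DMSO, which at 8 h was 3.14-fold its 0 h level (2.79 to 3.55). Intervals on counts are exact at 95% and cover counting error only, since reads without molecular identifiers are not independent molecules.

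ID2 (ENSG00000115738, chromosome 2, 8678845 to 8684453, plus strand) encodes a relative of ID1. Its total levels were 43.3, 7.49 and 8.45 scaled reads at 2, 4 and 8 h in AZ-5576, 227, 183 and 304 in JQ1, 103, 93.6 and 342 in DMSO, and 141 at 0 h. AZ-5576 libraries were again below all others, and at 4 h ID2 held 8.01% of the DMSO level (3.90% to 14.8%). Against DMSO, JQ1 stood at 219% at 2 h (179% to 271%), 195% at 4 h (159% to 241%) and 88.8% at 8 h (78.8% to 99.9%). The excess of ID2 over DMSO in JQ1 was thus seen at 2 and 4 h and not at 8 h. The antisense transcript ID2-AS1 overlaps ID2 and had a mean of 5 reads.

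ID3 (ENSG00000117318, chromosome 1, 23557918 to 23559794, minus strand) encodes another ID protein. Its total levels were 42.6, 17.0 and 10.99 scaled reads in AZ-5576, 112, 98.7 and 152 in JQ1, 87.7, 83.3 and 78.3 in DMSO at the same times, and 114 at 0 h. ID3 was the only ID gene below its 0 h level in DMSO at 8 h, at 0.689-fold (0.546 to 0.869), where ID1 and ID2 were above theirs. JQ1 held ID3 at 194% of DMSO at 8 h (157% to 240%), and AZ-5576 held it at 14.0% (8.86% to 21.5%).

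BAMBI (ENSG00000095739, chromosome 10, 28677342 to 28682939, plus strand), the decoy receptor, was almost absent from AZ-5576 at 4 and 8 h. It had 16, 4 and 2 total reads at 2, 4 and 8 h in AZ-5576, 74, 114 and 317 in JQ1, 37, 112 and 273 in DMSO, and 88 at 0 h. Scaled reads were 11.8, 2.72 and 0.845 in AZ-5576, 46.2, 62.5 and 182 in JQ1, 30.6, 81.9 and 155 in DMSO, and 59.5 at 0 h. The 2 reads in AZ-5576 at 8 h put BAMBI at 0.546% of DMSO (0.0658% to 1.99%). In both other media it was above its 0 h level at 8 h, 3.05-fold in JQ1 and 2.60-fold in DMSO.

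SMAD6 (ENSG00000137834, chromosome 15, 66702228 to 66782848, plus strand), the inhibitory SMAD of the BMP branch, followed another course. Its total levels were 24.98, 27.2 and 44.4 scaled reads in AZ-5576, 38.0, 198 and 148 in JQ1, 43.9, 24.1 and 38.0 in DMSO, and 33.1 at 0 h. The JQ1 libraries at 4 and 8 h were above all others, and the rest lay between 24.1 and 44.4. JQ1 stood at 8.21-fold DMSO at 4 h (5.74 to 12.1) and 3.90-fold at 8 h (2.97 to 5.19). AZ-5576 stood at 117% of DMSO at 8 h (85.2% to 161%), an interval that holds equality, while the median gene was at 32.2%.

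SKI (ENSG00000157933, chromosome 1, 2228695 to 2310119, plus strand), the co-repressor that binds SMAD2, SMAD3 and SMAD4, was at its highest in JQ1. Its total levels were 508, 352 and 137 scaled reads in AZ-5576, 773, 1784 and 3612 in JQ1, 737, 1287 and 1433 in DMSO, and 403 at 0 h. Levels of SKI were thus higher at each later time in JQ1 and in DMSO, and in AZ-5576 they were lower at each later time after 2 h. At 8 h SKI stood at 8.95-fold its 0 h level in JQ1 (8.23 to 9.75), 3.55-fold in DMSO (3.25 to 3.89) and 33.8% in AZ-5576. The median gene was at 111% of 0 h in JQ1 and at 143% in DMSO. JQ1 over DMSO was 105%, 139% and 252% at 2, 4 and 8 h, with intervals of 96.2% to 114%, 131% to 147% and 241% to 264%.

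SKIL (ENSG00000136603, chromosome 3, 170357678 to 170396835, plus strand), the relative of SKI, had levels of 73.5, 73.6 and 31.7 scaled reads in AZ-5576, 66.7, 124 and 104 in JQ1, 147, 173 and 162 in DMSO, and 72.3 at 0 h. The 3 DMSO libraries were above all 7 others. AZ-5576 and JQ1 held SKIL at 49.9% and 45.3% of DMSO at 2 h, near its 0 h level in both. At 8 h it was at 19.6% of DMSO in AZ-5576 (15.0% to 25.4%) and 64.1% in JQ1 (52.9% to 77.5%). SKI and SKIL therefore lay on opposite sides of DMSO in the JQ1 libraries at 4 and 8 h.

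TGIF1 (ENSG00000177426, chromosome 18, 3411608 to 3459978, plus strand), the homeodomain co-repressor, had 20, 6 and 5 total reads in AZ-5576, 26, 55 and 75 in JQ1, 96, 74 and 135 in DMSO, and 108 at 0 h. Scaled reads were 14.7, 4.09 and 2.11 in AZ-5576, 16.2, 30.2 and 43.0 in JQ1, 79.5, 54.1 and 76.6 in DMSO, and 73.0 at 0 h. At 2 h TGIF1 was low in both inhibitors, at 18.5% of DMSO in AZ-5576 (10.8% to 30.2%) and 20.4% in JQ1 (12.7% to 31.8%). At 4 and 8 h the inhibitors parted, with JQ1 at 55.7% and 56.1% of DMSO and AZ-5576 at 7.56% and 2.76%. The pseudogene TGIF1P1 had 0 reads.

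**Figure D1:**
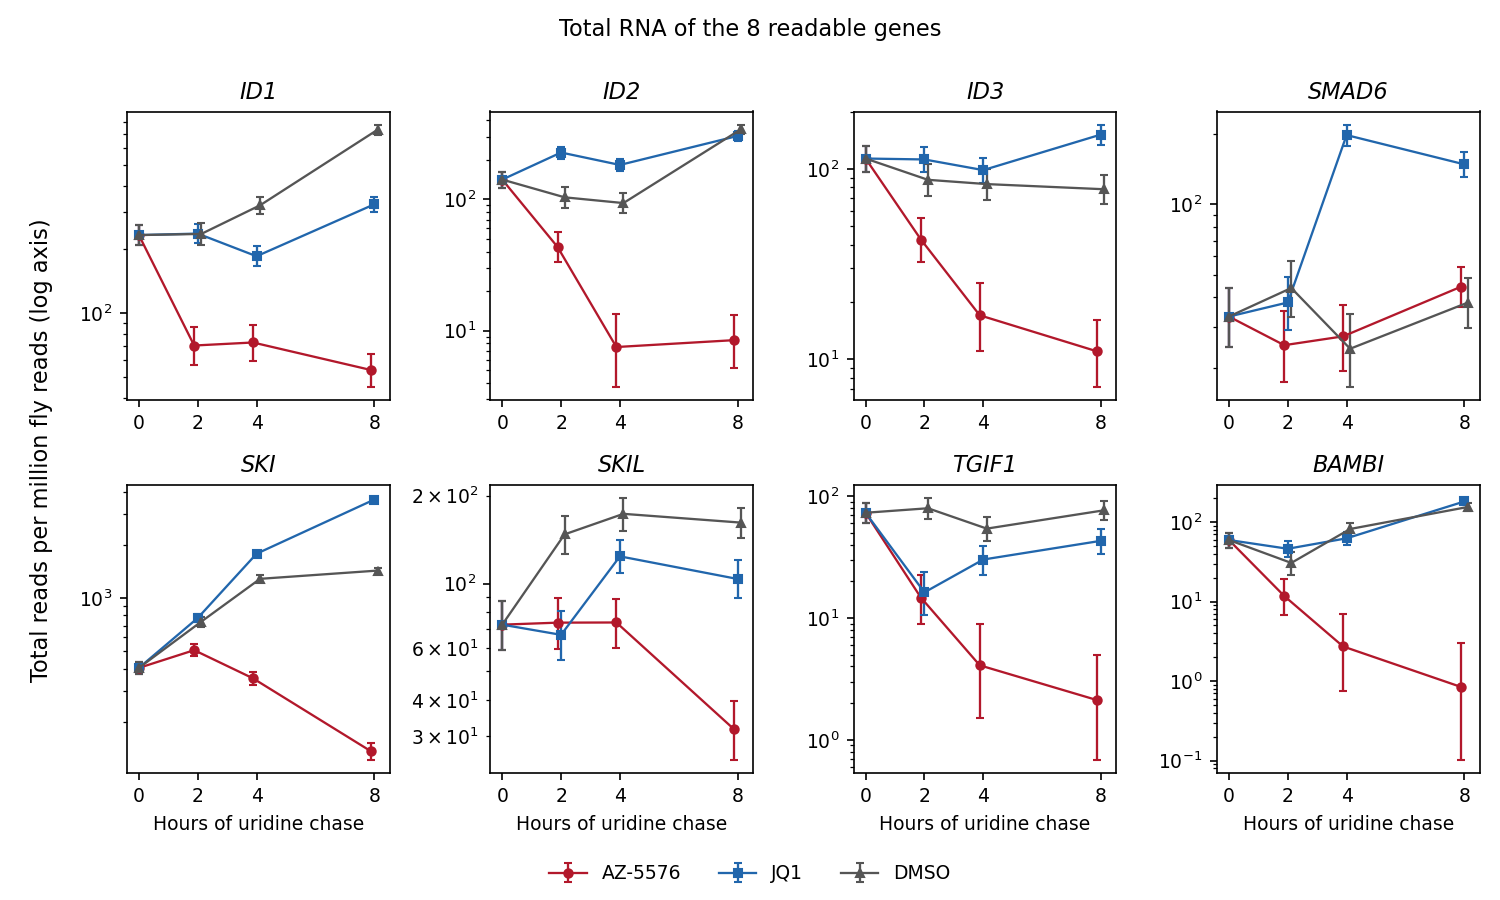
Total reads per 1000000 fly reads (log axis, each panel with its own scale) against hours of chase for the 8 readable genes, in AZ-5576 (red circles), JQ1 (blue squares) and DMSO (grey triangles), with 1 library per point, the shared 0 h library at the left and exact 95% counting intervals as bars. AZ-5576 is the lowest course in 7 panels at 4 and 8 h, and in the SMAD6 panel JQ1 stands at 198 and 148 while all others lie between 24.1 and 44.4.

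Set against all 11797 genes tested, the share of members at least 2-fold below DMSO in AZ-5576 was 6 of 8 at 2 h, with 9.3% of all genes, 7 of 8 at 4 h, with 32.7%, and 7 of 8 at 8 h, with 71.3%. SMAD6 was the exception at each time, and SKI, at 69.0% of DMSO, at 2 h. The median gene in AZ-5576 was at 84.0%, 63.0% and 32.2% of DMSO at 2, 4 and 8 h. In JQ1 the median gene was at 79.8%, 82.1% and 80.6%. In AZ-5576 the members' share was farthest above that of all genes at 2 h and near it at 8 h. The 2 h shares in AZ-5576 rest on the library that stood apart in the fly genes. In JQ1, 2 of 8 (SKIL and TGIF1) were at least 2-fold lower at 2 h, with 5.1% of all genes, 0 at 4 h, with 8.26%, and 1 (ID1) at 8 h, with 14.9%. At least 2-fold higher in JQ1 were ID2 at 2 h, with 1.47% of all genes, SMAD6 at 4 h, with 2.69%, and SMAD6 and SKI at 8 h, with 3.42%. AZ-5576 and JQ1 share the DMSO libraries, so these 2 sets of ratios are not independent.

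Total RNA was compared over 2, 4 and 8 h with edgeR's quasi-likelihood test, in a model with 1 level per time and 1 term per inhibitor. With 1 library per condition, its spread is the scatter of libraries about that model, and adjusted p-values (Benjamini-Hochberg over 11797 genes, threshold 0.05) are no replicate check. In tests of total RNA against DMSO, fell and rose mean lower and higher than DMSO, in level or in slope. In AZ-5576, ID1, ID2 and TGIF1 fell, 3 of 8 readable members, where 2.38% of all genes fell. ID1 changed by a log2 difference from DMSO of −2.55 (SE 0.45, adjusted p = 0.0310), ID2 by −3.25 (SE 0.72, adjusted p = 0.0486) and TGIF1 by −3.45 (SE 0.69, adjusted p = 0.0432). BAMBI had the largest difference, −3.94, with an adjusted p of 0.0519. ID3 (−1.95, adjusted p = 0.0538), SKIL (−1.47, adjusted p = 0.0570), SKI (−1.65, adjusted p = 0.0736) and SMAD6 (−0.22, adjusted p = 0.764) also did not pass. The median difference was −2.25 over the 8 members and −0.82 over all genes.

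The 3 calls were lost without the AZ-5576 4 h, JQ1 4 h, DMSO 4 h or DMSO 8 h library, where their adjusted p was 0.0710 to 0.256, and ID2 was also lost without the JQ1 2 h library (0.0546). Without the AZ-5576 2 h library, 7 of 8 members fell, all but SMAD6, with 57.6% of all genes, and the same 7 fell when slopes over hours were compared (73.3% of all genes) or with DESeq2's Wald test (35.3%). TMM scaling on the human reads, which moves the median of all genes to −0.08, added BAMBI to the calls (adjusted p = 0.0497, with 2.32% of all genes lower) and turned SMAD6 to 0.61.

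In JQ1, 0 of 8 members passed the same edgeR test, with 0.0% of all genes in either direction, although 1081 genes had an unadjusted p under 0.05 and DESeq2 called 71. SMAD6 had the largest difference, 1.69 (SE 0.59, adjusted p = 0.508), and it was the 1 member of 8 with an unadjusted p under 0.05 (0.0154). TGIF1 stood at −1.16 (SE 0.60, adjusted p = 0.552), SKI at 0.77 (SE 0.56, adjusted p = 0.636), SKIL at −0.73 and ID1 at −0.71. ID2 and ID3 stood at 0.51 and 0.56, and BAMBI at 0.07. The median difference was 0.29 over the 8 members and −0.31 over all genes. DESeq2 called none of the 8, with 0.398% of all genes lower and 0.203% higher. Without the AZ-5576 2 h library none of the 8 passed either, with 0.0845% of all genes lower and 0.118% higher.

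The JQ1 outcome depended on the model. With the AZ-5576 libraries left out of the fit, SMAD6 (1.65, adjusted p = 0.0345) and SKI (0.63, adjusted p = 0.0444) rose, where 1.66% of all genes rose. ID1 (−0.67, adjusted p = 0.0462), SKIL (−0.75, adjusted p = 0.0335) and TGIF1 (−1.28, adjusted p = 0.0246) fell, where 20.9% fell. In edgeR slopes over hours, the JQ1 slope exceeded that in DMSO by 0.36 per h on the log2 scale for SMAD6 (adjusted p = 0.00302). For SKI it did so by 0.15 per h (adjusted p = 0.0113), and 1.79% of all genes had a higher slope. The JQ1 slope of ID1 was below that in DMSO by 0.15 per h (adjusted p = 0.0298), and 16.2% of all genes had a lower one. ID1 itself was at 1.40-fold its 0 h level in JQ1 at 8 h.

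**Figure D2:**
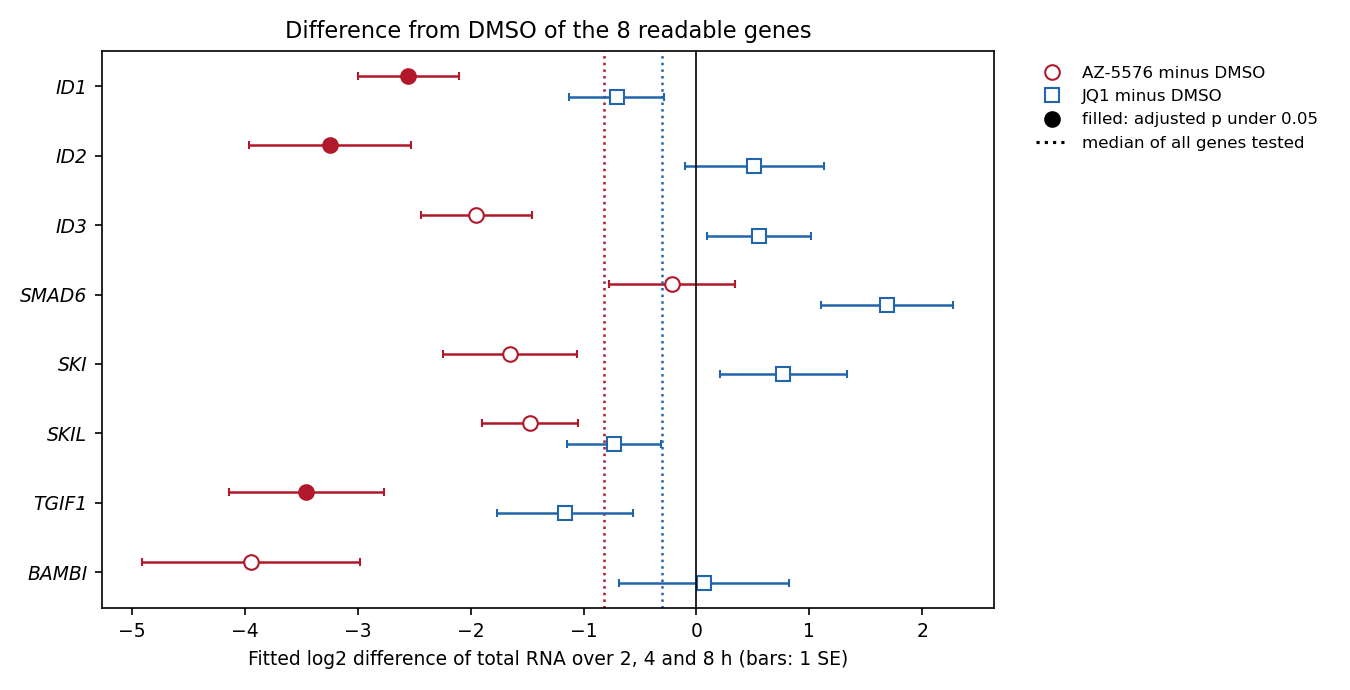
Fitted log2 difference of total RNA over 2, 4 and 8 h (horizontal axis) for the 8 readable genes, AZ-5576 minus DMSO in red and JQ1 minus DMSO in blue, with bars of 1 SE, filled points where adjusted p was under 0.05 and dotted lines at the medians of all genes. The filled red points are ID1 (−2.55), ID2 (−3.25) and TGIF1 (−3.45), no blue point is filled, and SMAD6 is the member nearest 0 in red and farthest right in blue (1.69).

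Compared with each other in the same fit, AZ-5576 was below JQ1 for ID2 (−3.76, SE 0.71, adjusted p = 0.0397) and ID3 (−2.50, SE 0.50, adjusted p = 0.0456), 2 of 8 members, where 1.17% of all genes were lower. ID1 (−1.84, adjusted p = 0.0682), BAMBI (−4.01, adjusted p = 0.0703), SKI (−2.42, adjusted p = 0.0890), SMAD6 (−1.91, adjusted p = 0.126), TGIF1 (−2.29, adjusted p = 0.129) and SKIL (−0.74, adjusted p = 0.337) did not pass. Leaving out the AZ-5576 4 h, JQ1 4 h, DMSO 4 h or DMSO 8 h library ended both calls, with adjusted p of 0.0778 to 0.320, and the one for ID3 was also lost without the JQ1 8 h library (0.135). Without the AZ-5576 2 h library 7 of 8 were lower, all but SKIL (adjusted p = 0.0645), with 31.7% of all genes, and in slopes over hours 8 of 8 were lower, with 55.0%.

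Labelled reads are meant to follow the RNA made before the chase, but labelled levels did not only fall. SKI had 274 labelled scaled reads at 0 h and 329, 373 and 327 at 2, 4 and 8 h in JQ1. SMAD6 had 10 labelled reads at 0 h and 28, 36 and 30 in JQ1. ID1, ID2 and ID3 were below 0 h in every later library. Whether RNA made during the chase was counted as labelled was not tested, so half-lives describe labelled reads. In DMSO the labelled RNA of all 5 genes with enough reads fell over the chase, as did that of 88.3% of the 8817 genes tested, by edgeR's quasi-likelihood test of a straight line in log2 counts with adjusted p of at most 0.000822. The fitted half-life, uncorrected for growth, was 1.53 h for ID3 (1.33 to 1.80 at 1 SE), 2.35 h for ID1 (2.05 to 2.75) and 2.91 h for ID2 (2.46 to 3.56), against 4.49 h for the median gene. SKIL and SKI were near that median, at 4.73 h (3.67 to 6.66) and 5.00 h (4.18 to 6.21). The order of ID1 and ID2 was not separated at 1 SE, nor was that of SKIL and SKI. Without the DMSO 8 h library the slope in DMSO was −0.80 per h on the log2 scale for ID2, against −0.34 with it, and −0.99 for ID3, against −0.65 with it. Without it the slopes of SKI and SKIL in DMSO were not called (adjusted p = 0.381 and 0.508), and with TMM scaling they turned to 0.018 and 0.0018 per h on the log2 scale, while that of ID2 was −0.15 and not called (adjusted p = 0.105). Labelled RNA also fell for 5 of 5 members in AZ-5576, with 85.1% of all genes, and for 4 of 5 in JQ1, all but SKI, with 90.8%.

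ID3 had 28, 13 and 2 labelled reads at 2, 4 and 8 h in AZ-5576, 46, 18 and 9 in JQ1, 32, 2 and 5 in DMSO, and 96 at 0 h. ID1 had 57, 41 and 26 in AZ-5576, 82, 40 and 8 in JQ1, 72, 68 and 14 in DMSO, and 200 at 0 h. Both were lower at 2 h than at 0 h in every medium, and the last points rest on few reads. ID2 had 34, 8 and 7 labelled reads in AZ-5576, 87, 60 and 17 in JQ1, 45, 10 and 28 in DMSO, and 143 at 0 h. In DMSO its 8 h count was above that at 4 h, against the direction of the fitted line.

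The labelled slope of ID2 was steeper in AZ-5576 than in DMSO by −0.32 per h on the log2 scale (SE 0.085, adjusted p = 0.00990), with a half-life of 1.51 h. SKI was steeper by −0.17 (SE 0.039, adjusted p = 0.00275), with 2.74 h. These were 2 of the 5 members, where 1.22% of all genes had a steeper slope. The spread in the labelled fit was pooled over genes, so a gene's own scatter did not enter its p-value. ID1, ID3 and SKIL had half-lives of 2.18, 1.43 and 3.80 h in AZ-5576, and their slopes differed from DMSO by −0.03, −0.05 and −0.05, with adjusted p of 0.727 to 0.898. The ID2 difference was lost without the AZ-5576 4 h library (adjusted p = 0.117) and with DESeq2 (adjusted p = 0.229), and without the DMSO 8 h library it turned to 0.07. The SKI difference was lost without the AZ-5576 8 h library (−0.07, adjusted p = 0.889). Without the AZ-5576 2 h library both passed, at −0.31 (adjusted p = 0.0178) for ID2 and −0.17 (adjusted p = 0.00213) for SKI, with 1.13% of all genes.

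SKI was the 1 member of the 5 fitted whose labelled slope passed the test of JQ1 against DMSO. Its labelled level was 292, 181 and 45.2 scaled reads at 2, 4 and 8 h in AZ-5576, 329, 373 and 327 in JQ1, 351, 299 and 113 in DMSO, and 274 at 0 h. In JQ1 all 3 libraries were above the 0 h level. DMSO was below it at 8 h and AZ-5576 at 4 and 8 h. The slope in JQ1 was −0.05 per h on the log2 scale and did not pass the test (adjusted p = 0.195), and it exceeded that in DMSO by 0.15 (SE 0.037, adjusted p = 0.0111). SKI was 1 of 5 members with a higher slope, where 0.318% of all genes had one. Since SKI's labelled level in DMSO at 2 and 4 h was also above that at 0 h, a straight line describes it poorly.

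That call was lost without the JQ1 4 h (adjusted p = 0.0908), JQ1 8 h (1.00) or DMSO 8 h library (0.977) and with DESeq2 (0.0777), and it passed without the AZ-5576 2 h library (0.15, adjusted p = 0.0145, with 0.309% of all genes). The unlabelled RNA of SKI was 217, 171 and 91.3 scaled reads in AZ-5576, 444, 1411 and 3285 in JQ1, 386, 988 and 1320 in DMSO, and 129 at 0 h. The JQ1 excess of SKI at 8 h was therefore in both fractions. No library without 4-thiouridine was analysed here, so how many unlabelled molecules are counted as labelled was not tested. ID1 (half-life 1.70 h), ID2 (3.13 h), ID3 (2.13 h) and SKIL (3.53 h) in JQ1 had slopes with adjusted p of 0.532 to 0.990 against DMSO.

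**Figure D3:**
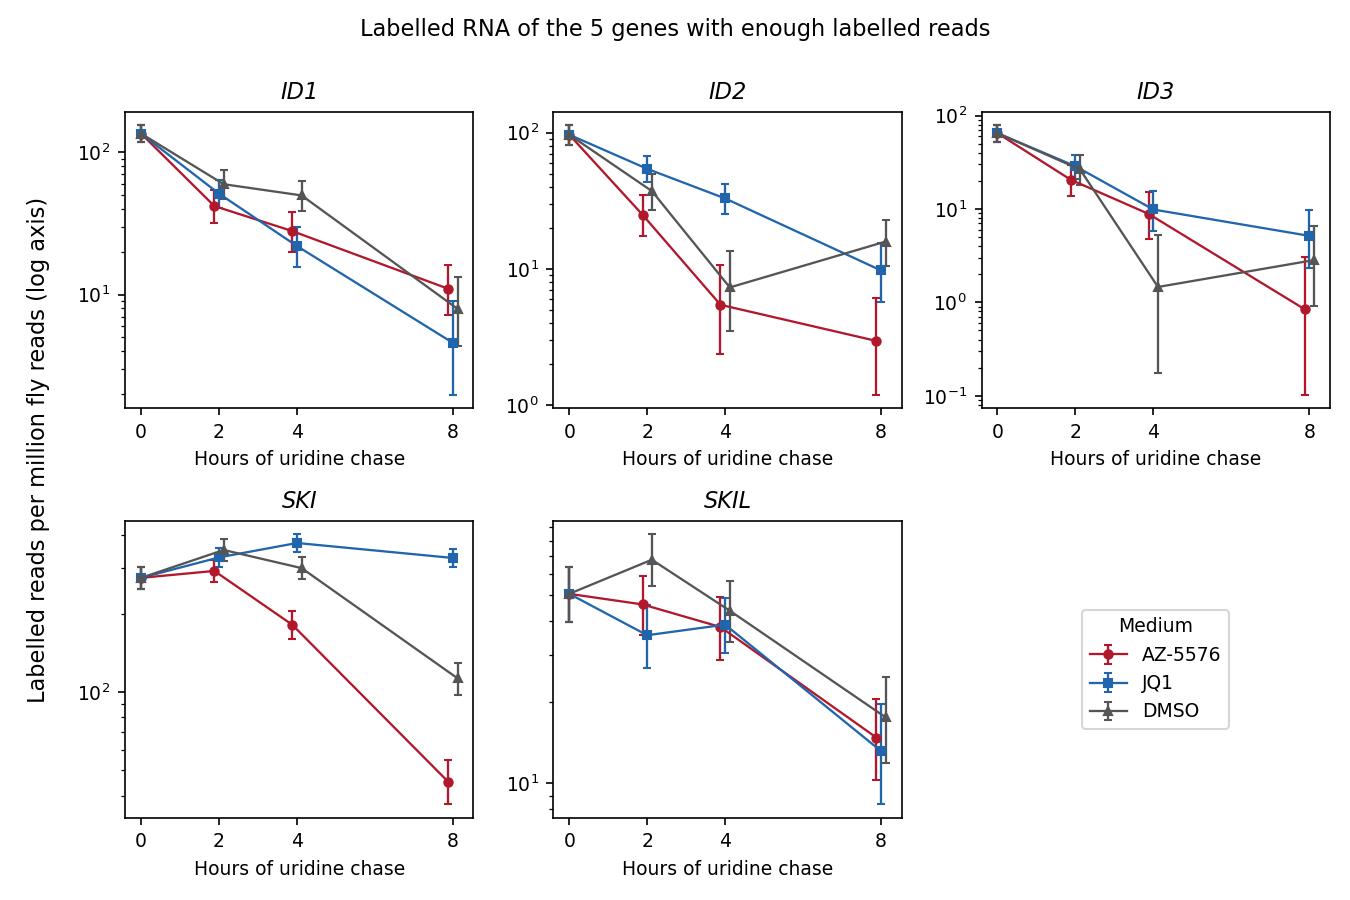
Labelled reads per 1000000 fly reads (log axis, each panel with its own scale) against hours of chase for the 5 genes with a mean of at least 20 labelled reads, in AZ-5576 (red circles), JQ1 (blue squares) and DMSO (grey triangles), with 1 library per point and exact 95% counting intervals. SKI stands at 327 in JQ1 at 8 h, against 113 in DMSO, and in the ID3 panel the points at 8 h rest on 2, 9 and 5 reads.

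The labelled share of each gene's reads sets both fractions side by side. At 0 h it was 84.3% for TGIF1, 73.9% for BAMBI, 70.1% for SKIL, 68.4% for ID2, 68.0% for SKI, 57.8% for ID1, 57.1% for ID3 and 20.4% for SMAD6, against 51.5% for the median gene. SMAD6 was the 1 readable member below that median. At 8 h ID1 was at 20.3% in AZ-5576, 1.40% in JQ1 and 1.08% in DMSO, and SKIL at 46.7% in AZ-5576, 12.7% in JQ1 and 10.9% in DMSO. SKI was at 33.1% in AZ-5576, 9.05% in JQ1 and 7.87% in DMSO. The median gene was then at 40.7% in AZ-5576, 11.5% in JQ1 and 9.13% in DMSO, so SKIL lay above the median gene and ID1 below it in each medium.

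The 3 genes with few labelled reads differed from each other. TGIF1 had 15, 1 and 2 labelled reads in AZ-5576, 14, 10 and 2 in JQ1, 38, 5 and 2 in DMSO, and 91 at 0 h. BAMBI had 13, 0 and 0 in AZ-5576, 12, 6 and 3 in JQ1, 10, 9 and 1 in DMSO, and 65 at 0 h. Both were at most 10 reads in every library at 4 and 8 h. SMAD6 had 14, 8 and 4 labelled reads in AZ-5576, 28, 36 and 30 in JQ1, 17, 6 and 12 in DMSO, and 10 at 0 h. Every JQ1 library was above the others, while the labelled share of SMAD6 at 4 h was 20.0% in AZ-5576, 9.97% in JQ1 and 18.2% in DMSO.

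**Figure D4:**
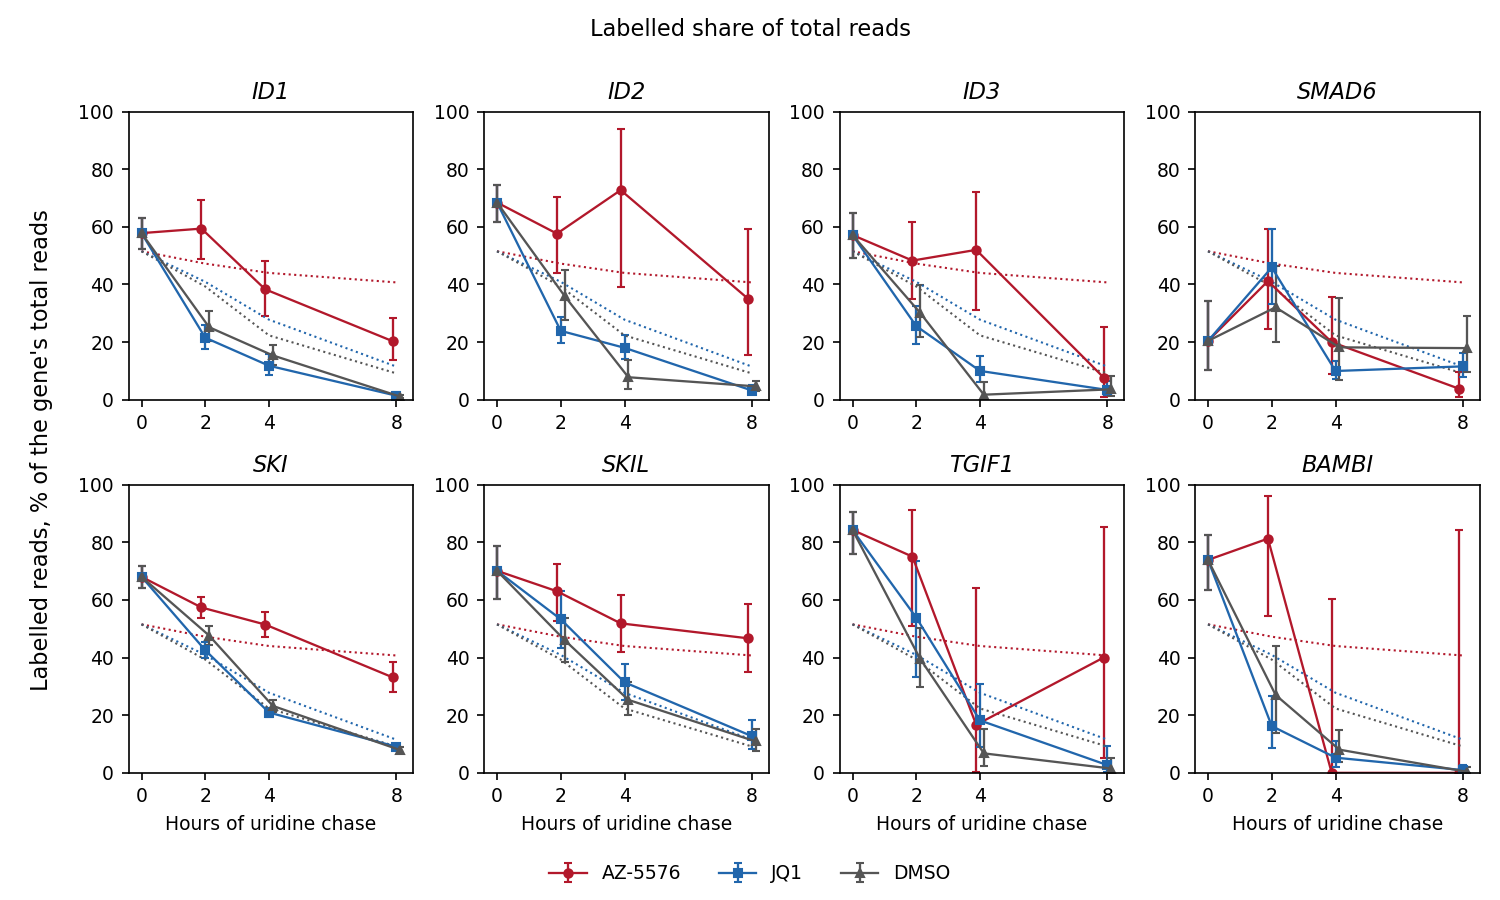
Labelled reads as a percentage of each gene's total reads against hours of chase for the 8 readable genes, in AZ-5576 (red circles), JQ1 (blue squares) and DMSO (grey triangles), with 1 library per point, exact 95% binomial intervals and dotted lines for the median of all genes in the same media. ID1 ends at 20.3%, 1.40% and 1.08% in AZ-5576, JQ1 and DMSO, and the BAMBI and TGIF1 points in AZ-5576 at 4 and 8 h have wide intervals.

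Other genes of the pathway were counted from lists drawn up by function. Of 31 ligand genes 5 were tested, and 0 passed in AZ-5576 against DMSO by edgeR, where 2.38% of all genes fell. TGFB1 stood at 0.03, AMH at 0.35 and GDF15, a distant family member, at −1.55 (adjusted p = 0.0638). Of 17 receptor genes 9 were tested and 0 passed, with TGFBR1, the type I TGF-beta receptor, at −0.90, TGFBR3, a co-receptor, at −0.78 and AMHR2 at −0.42. Of 8 genes in a list of signalling SMADs and the SMAD anchors ZFYVE9 and ZFYVE16, 5 were tested (4 SMADs and ZFYVE16) and 0 passed, with SMAD3 at −1.41, SMAD4 at −0.90 and SMAD5 at −0.88. With 2.38% of all genes lower, 0 calls in lists this short do not set these genes apart. The medians were 0.03, −0.90 and −0.93 in these 3 lists, against −0.82 over all genes. In slopes over hours 2 of the 5 ligands, 8 of the 9 receptors and 5 of the 5 genes in the SMAD list fell, where 73.3% of all genes fell, and 1 ligand rose, where 0.559% rose.

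Regulators around the SMADs were counted in the same fit by time levels. Among 14 tested genes of SMAD turnover only WWP1, a ubiquitin ligase, fell (−2.18, adjusted p = 0.0445), where 2.38% of all genes fell, while TRIM33 stood at −1.21, UCHL5 at −0.85 and STUB1 at −0.22. Of 14 tested co-repressors and co-activators 0 passed, with NCOR1 at −0.76, CTBP1 at −0.87 and PRMT5 at −0.55. Of 5 extracellular antagonists 0 passed, with TWSG1 at −0.55, LTBP3 at −0.70 and LTBP4 at −0.13. Both counts of 0 stand beside the same 2.38% of all genes and do not set these lists apart. A list of ID partners and related helix-loop-helix factors, which also holds the adaptors LMO2 and LDB1 of their complexes, had 1 of 10 that fell, again beside 2.38% of all genes: HES1, a Notch target (−4.45, adjusted p = 0.0375). TCF3, the E protein bound by ID proteins, stood at −0.43, and the erythroid factors TAL1 and LYL1 at −1.33 and −1.18. In slopes over hours 12 of 14 turnover genes, 13 of 14 co-regulators, 4 of 5 antagonists and 9 of the 10 genes in the helix-loop-helix list fell in AZ-5576, where 73.3% of all genes fell. In JQ1, 7 of these 10 fell in slopes, where 16.2% of all genes fell. The fit by time levels called 0 of 10, and 0.0% of all genes. The long-lived globin transcripts HBG1, HBG2 and HBZ of K562 stood at 0.09, 0.06 and 0.14 in AZ-5576 minus DMSO.

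Among 11 tested genes of a list of other BMP and TGF-beta targets 3 fell in AZ-5576, where 2.38% of all genes fell: JUNB, an AP-1 subunit (−3.64, adjusted p = 0.00995), KLF11, a Krüppel-like repressor (−2.61, adjusted p = 0.0283), and SNAI1, a zinc finger repressor (−2.90, adjusted p = 0.0310). KLF10 stood at −0.81 and ZEB2 at −1.09, and the median of the list was −1.41. In slopes 9 of the 11 fell, where 73.3% of all genes did. AZ-5576 was also below JQ1 for JUNB (−4.16, adjusted p = 0.00335) and SNAI1 (−3.38, adjusted p = 0.0220), 2 of the 11, where 1.17% of all genes were lower. In the edgeR fit by time levels JQ1 against DMSO gave 0 calls in each of these lists, where it called 0.0% of all genes. No list could therefore hold a call for JQ1 in that fit. In edgeR slopes 5 co-regulators and 1 gene each of the turnover, receptor, SMAD and other target lists fell, where 16.2% of all genes fell. In the same slopes 1 ligand and 1 other target rose, where 1.79% rose.

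The genes whose total course over the 10 libraries was most like each member's are given as a description, by Pearson's r of log2 levels among 8203 genes with a mean of at least 100 reads. SKI was close to ARIH1 (0.990) and OGDH (0.987), and BAMBI to DDIT4 (0.993), LCMT2 (0.986) and ZNF217 (0.982). ID3 was closest to GZF1 (0.979), MYLIP (0.979) and ZNF92 (0.978), and ID2 to GZF1 (0.969), DNAJB9 (0.964) and DDIT4 (0.957). ID1 was closest to CCZ1 (0.971), HEATR3 (0.969) and CRLS1 (0.967), and SKIL to NUFIP1 (0.974), GNL1 (0.972) and TULP4 (0.969). SMAD6 had the lowest likeness to any gene, with SLC13A3 (0.873), RAB33B (0.868) and ADARB1 (0.847). No member is named among those closest to another. TGIF1 had a mean under 100 reads and was not compared.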

How the data were processed

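The authors deposited raw counts per gene, per the labels as separate tables of total, nascent and fly spike-in reads, 1 column for each of 10 K562 libraries; the nascent counts are called labelled reads here. Tools named in the submitters' processing notes are bcl2fastq (version 2.17.1.14), bedtools and Trim Galore (version 0.6.5), and the builds named are hg38 and dm6. The aligner, the counter, the annotation and the rule for a nascent read are not given in the sources used here. Per the labels' protocols the libraries read 3′ ends. RNA was labelled, chased and sampled as described above, and 1 library per condition was grouped by inhibitor and hour.

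Counts were fitted with edgeR 4.0.16 (R 4.3.3) with the fly total as library size and a mean of at least 20 reads, which kept 11797 genes of total and 8817 of labelled RNA. Total RNA was fitted by time levels plus an inhibitor term (4 residual degrees of freedom), labelled RNA by a common 0 h level and 1 slope per medium (6). In the labelled fit edgeR pooled the spread fully over genes, so the p-values do not rest on those 6 alone. Single-library ratios are raw, and calls of 2-fold used a pseudocount of 0.5 reads. The fits were tested on simulated counts. Alternatives were other scalings, count minimums, DESeq2 1.42.0, slopes, fewer arms and each library left out. Intervals used SciPy 1.17.1.

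All 9 members are named; of the other lists, genes past the threshold and up to 3 with the most reads, and for each member with a mean of at least 100 reads the 3 most correlated genes, of which 1 is not reported here. The members and lists were chosen with earlier results of these data known.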

Additional observations from a re-analysis of the deposited data

Results flagged for a closer look

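The effects of the 2 inhibitors on ID2 and ID3 differed by edgeR's test of the difference itself, with n = 1 per condition. Of 10 fits with 1 library left out, 4 lost the call for ID2 and 5 that for ID3. The 0 h library alone sets its own time level, so leaving it out does not test this difference. The log2 difference of AZ-5576 minus JQ1 in total RNA was −3.76 for ID2 and −2.50 for ID3. For ID2, AZ-5576 minus DMSO was −3.25 and JQ1 minus DMSO 0.51, and for ID3 they were −1.95 and 0.56. In all 3 time points the AZ-5576 library was below the JQ1 library for both genes, as for every other readable member but SKIL. The median difference over all genes was −0.46. No group had enough libraries to look for a single library far from its group.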

How the results depend on the processing

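No paired analysis was possible because the groups share fewer than 2 replicate numbers; time is already a term of the fits. For AZ-5576 minus DMSO the count was 291, and it was 178 with DESeq2 size factors, 175 with TMM on fly genes, 3605 with no count minimum, 31 with a mean of at least 100 reads, 4192 with DESeq2, 8709 with slopes and 1660 with the compared arms alone. For JQ1 minus DMSO the count of 0 became 4 with TMM and with DESeq2 size factors, 212 with no minimum, 71 with DESeq2, 2126 with slopes and 2697 with the compared arms. For AZ-5576 minus JQ1 the count of 140 became 608, 578, 1358, 1212, 6590 and 18 under those same 6 settings, and 36 with a mean of at least 100 reads. Leaving out each library gave 1 to 6866, 0 to 847 and 7 to 3786 calls. Labelled slopes in DMSO gave 7791 calls, 4336 with TMM, 4364 with DESeq2 size factors, 4285 with a mean of at least 100 and 1304 without the 8 h libraries. Labelled AZ-5576 minus DMSO gave 419, and 251 with no minimum, 264 with DESeq2 and 15 without 8 h. Labelled JQ1 minus DMSO gave 59, and 91 with TMM, 89 with DESeq2 size factors, 34 with a mean of at least 100, 37 with DESeq2 and 5 without 8 h. Leaving out each library gave 3370 to 7968, 26 to 764 and 10 to 87 for these.

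Of the single-gene values under all alternatives, 44 lost the call, 71 gained it, 22 moved beyond counting error, 18 turned and the rest kept direction and call. SMAD6 in AZ-5576 minus DMSO turned to 0.61 with TMM, 0.66 with DESeq2 size factors and 0.013 per h with slopes. The labelled slope in DMSO turned to 0.018 (TMM), 0.024 (size factors) and 0.0042 (without 8 h) for SKI, and to 0.0018 and 0.0079 for SKIL with the first 2. ID3's labelled difference of AZ-5576 from DMSO turned to 0.27 without 8 h, and the log2 ratio of ID2 in JQ1 at 8 h to 0.16 with TMM. With libraries left out, values ran from −0.58 to 0.50 (BAMBI) and −0.086 to 1.26 (SKI) in JQ1 minus DMSO, from −0.61 to 0.50 for SMAD6 in AZ-5576 minus DMSO, from −0.14 to 0.023 (ID1), −0.54 to 0.072 (ID2) and −0.17 to 0.24 (ID3) in labelled AZ-5576 minus DMSO, and from −0.046 to 0.42 for ID2 in labelled JQ1 minus DMSO. Calls for ID2 were lost with TMM on fly genes (adjusted p = 0.0525) and a mean of at least 100 reads (0.0604) in AZ-5576 minus DMSO. For AZ-5576 minus JQ1 the calls of ID2 and ID3 were lost at that mean (0.0588 and 0.0649) and with the compared arms alone (0.0711 and 0.175), and ID3's with TMM on fly genes (0.0526). The causes were not tested. Few reads limit SMAD7 in both tables and SMAD6, TGIF1 and BAMBI in labelled RNA.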
